A study of Mus musculus with 6 samples.

Results

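The genes described here encode the proteins of the cytosolic ribosome. They were chosen by name: every row of the deposited gene table whose symbol is Rpl or Rps followed by a number and any letters, together with Rpsa and the Rplp genes, with rows marked "-ps" as pseudogenes left out. The rule gave 84 of the 34745 genes listed, 33 of the small subunit (Rps) and 51 of the large subunit (Rpl). RNA was sequenced from the dorsal striatum of C57BL/6 mice at an age of 1 year, in 3 libraries from wild-type (WT) mice and 3 from mice heterozygous for Ash1l (Ash1l het), a gene that encodes a histone methyltransferase. The sources used here do not give the kind of Ash1l allele, and no treatment is named for either group. The labels do not say that each library is a separate animal, so the p-values measure the spread between these libraries.

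A ribosome has a small subunit, which reads the mRNA, and a large subunit, which joins the amino acids and guides the new chain out through a tunnel. Each subunit is built from ribosomal RNA and many proteins that are needed in equal numbers, and mammals carry, beside most of the working genes, processed pseudogenes that arose as copies of their mRNAs. Most ribosomal protein mRNAs open with an unbroken run of C and T, the terminal oligopyrimidine (TOP) tract, through which the kinase complex mTORC1 and the protein Larp1 control their translation. Neurons also hold ribosomes and ribosomal protein mRNAs in dendrites and axons, far from the cell body.

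The windows below are shown because the start-site tract is the sequence feature the family is known for; it was not used to choose the genes. Of the 84 genes, 63 matched the RefSeq promoter table for GRCm38.p6 by symbol. Each window holds 30 bases of the coding strand, 10 before and 20 from the annotated start, and capitals mark the longest unbroken run of C and T that reaches within 5 bases of that start. Rpl35 (chr2:39005112-39005141, minus strand), Rpl15 (chr14:18270967-18270996, minus strand), Rplp2 (chr7:141447641-141447670, plus strand) and Rps24 (chr14:24490668-24490697, plus strand) have runs of 18, 17, 10 and 9. Rps25 (chr9:44407704-44407733, plus strand), Rpsa (chr9:120127756-120127785, plus strand) and Rpl37rt (chr5:115110249-115110278, minus strand), to which the values below return, have runs of 4, 3 and 3 near the annotated start. A run can lie wholly before that start, as those of Rps25 and Rpsa do.

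Rpl35: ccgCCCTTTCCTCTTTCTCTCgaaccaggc
Rpl15: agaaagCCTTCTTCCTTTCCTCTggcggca
Rplp2: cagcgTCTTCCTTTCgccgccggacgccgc
Rps24: gctggggTCCTTCCTTgcgcgttgatatga
Rps25: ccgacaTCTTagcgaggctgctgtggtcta
Rpsa: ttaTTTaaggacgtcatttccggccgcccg
Rpl37rt: caggccagagCCCgcacccagcagtgcgtg

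Runs of this kind were more frequent in the family than in the table as a whole. A run of at least 8 was found in 20 of the 63 genes (31.7%) against 9.63% of all 27025 promoters in the table, and a run of at least 6 in 30 (47.6%) against 21.0%. The median run was 5 bases in the family and 3 over all promoters. The letters CTTTC stood within 10 bases of the start, on the coding strand, in 11 of the 63 genes (17.5%) against 2.43% of all promoters. The longer CTTTCC, which contains them, stood there in 9 (14.3%) against 0.840%. Among the genes with a run of at least 8, those of Rpl4 and Rps27l end before the annotated start. A match describes the letters in the window and nothing more.

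Library totals ran from 12080663 to 18798694 counts. Ash1l itself was counted at 281, 198 and 253 CPM (read counts per library brought to a common size with edgeR's TMM factors) in Ash1l het replicates 1, 2 and 3 and at 308, 295 and 293 in WT. All 3 Ash1l het libraries were below all 3 WT libraries, with a log2 fold change of -0.29 (SE 0.13, edgeR quasi-likelihood adjusted p = 0.858) that was -0.16 without replicate 2. The labels give male mice, whereas Xist, expressed from the inactive X chromosome of female cells, was between 1956 and 2957 CPM in every library and the Y-linked Ddx3y had 0 counts in all 6. The spiny projection neuron markers of the striatum (10 genes, such as Drd1, Drd2 and Ppp1r1b) summed to between 7163 and 8778 CPM in Ash1l het and between 7459 and 8602 in WT.

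Most of the family was expressed, at very unequal levels. The default filter of edgeR on low counts kept 80 of the 84 genes, 31 of the small and 49 of the large subunit. Rpl10l and Rpl39l, the autosomal copies of Rpl10 and Rpl39 known from testis, had 0 counts in all 6 libraries, which allows up to 3 counts in a library (0.160 to 0.248 CPM). Rps29, with 2, 2 and 2 counts in the Ash1l het libraries and 2, 2 and 0 in WT, and Rps23, with 9, 16 and 10 against 10, 10 and 9, were too low to be tested. The mean count of the tested genes ran from 6.83 to 6666, with a median of 335.

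On the authors' FPKM scale, which divides by a gene length, the mean over the 6 libraries ran from 0.117 to 297 with a median of 9.72. Rpl4, whose protein lines the exit tunnel, was highest at 297 FPKM, before Rpsa (197), a small subunit protein that also serves as a laminin receptor, and Rps15 (171), which lies near the decoding centre. Rpl13a (129) and Rplp1 (127) were also among the 8 genes over 100 FPKM, and 17 of the 80 genes were under 2 FPKM. At the bottom stood Rpl9 (0.117), Rps13 (0.161), Rpl3l (0.267), Rpl11 (0.284), Rps27 (0.435) and Rpl12 (0.616). The length behind the deposited FPKM was longer than the annotated mRNA in 66 of the 80 genes (medians 2470.5 and 882 bases). Per kilobase of annotated mRNA the same 3 genes led in another order, Rps15 at 285, Rpl4 at 275 and Rpsa at 190 CPM per kilobase, and the range was 0.328 to 285.

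**Figure D1:**
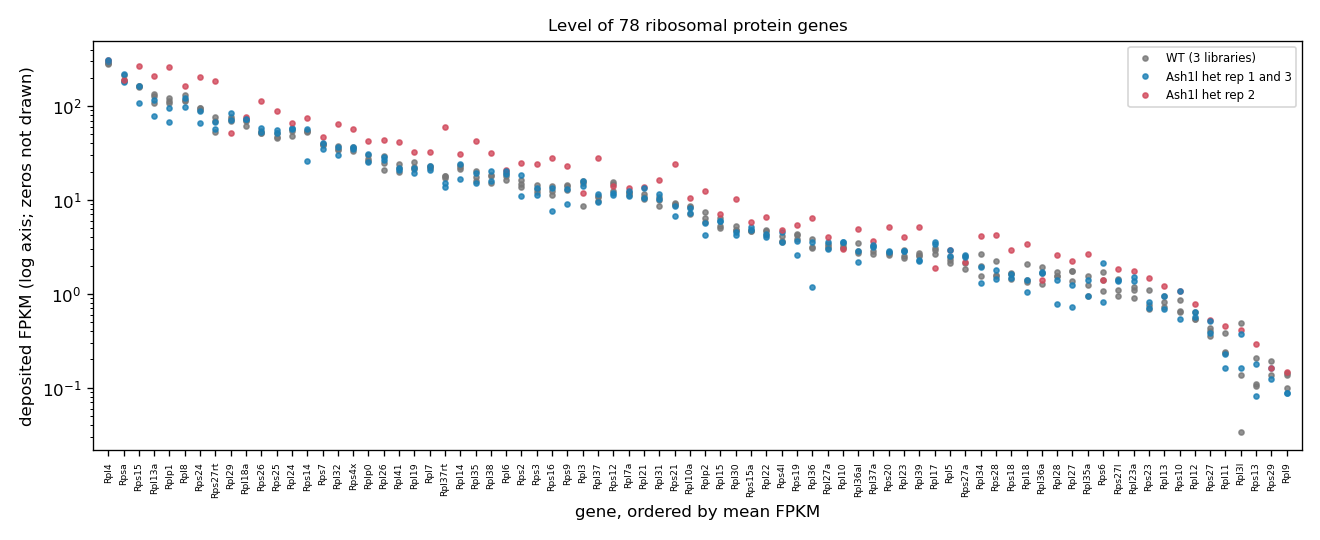
Deposited FPKM (log axis) of 78 of the 82 ribosomal protein genes with any count, 1 point per library, ordered by the mean; grey is WT, blue is Ash1l het replicates 1 and 3, red is Ash1l het replicate 2. Mean levels of the tested genes run from 297 for Rpl4 to 0.117 for Rpl9, and the red point lies above the others for most genes.

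Several of the low genes had a near-identical copy that held far more counts. The copies below were looked up after the levels were seen. They are other listed genes whose transcripts held at least 100 matches to 50-base stretches of the member's mRNA, on either strand. A stretch was counted again at each place and in each transcript of the other gene. Matches can therefore outnumber the distinct stretches shared. Such a gene, in some cases another coding gene rather than a copy, was found for 39 members, and for 16 of them it held more counts than the member. Rpl9, a large subunit protein, had 121 counts over the 6 libraries, whereas Rpl9-ps6 had 4491. Rpl12 had 420 counts and its copy Gm10275 had 12040, and Rpl11 had 121 and its copy Gm10036 had 2308. Rps27 had 119 counts against 2938 in the retrogene copy Rps27rt, and 1.35% of the 50-base stretches of its mRNA occur in no other gene. Rpl5 had 1279 counts against 11615 in Gm15500. The sources used here do not give how the authors' counting treated reads that fit more than 1 place, and the levels of these genes and of their copies are uncertain. Over the 80 genes, the percentage of 50-base stretches found in no other gene was set against the log2 CPM per kilobase. Pearson's r was 0.065 and Spearman's rho 0.097, as a description. The percentage takes no account of how many counts the copies hold, and the part of shared reads in the low levels was not tested. Rpl4 (83.5% in no other gene) was the second highest on that scale and Rpl3l (100%), a paralog of Rpl3 known from muscle, was among the lowest.

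No ribosomal protein gene passed the test of Ash1l het against WT. In edgeR's quasi-likelihood fit over all 15267 tested genes, 0 of the 80 passed an adjusted p under 0.05, where 0.0131% of all genes (2) did. The smallest adjusted p among them was 0.858, and 1 gene, Rps25, had an unadjusted p under 0.05 (5.78% of all genes). DESeq2, edgeR's exact test and limma-voom also called 0 of the 80, with 1, 0 and 0 at an unadjusted p under 0.05. The log2 fold change of Ash1l het over WT was above 0 for 69 of the 80 (86.25%, against 51.4% of all genes) and its median was 0.16, with quartiles of 0.065 and 0.29 and a range of -0.30 to 0.66. The median over all genes was 0.0063. It was above 0 for 27 of the 31 small subunit genes (median 0.23) and for 42 of the 49 large subunit genes (median 0.15). In whole tissue, fewer cells of a type and less RNA per cell cannot be told apart.

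The excess of fold changes above 0 rested on 1 library, Ash1l het replicate 2: of the 69, 35 were below 0 without it and 34 stayed above 0. Summed over the 84 genes, the level was 3030, 4587 and 3681 CPM in Ash1l het replicates 1, 2 and 3 and 3260, 3518 and 3529 in WT. Replicate 2 stood above all other libraries and replicate 1 below them, so the WT values lay inside the Ash1l het range. The small subunit genes summed to 1194, 2016 and 1558 CPM in Ash1l het and 1374, 1482 and 1503 in WT. The large subunit genes summed to 1837, 2571 and 2123 against 1886, 2036 and 2026. Both subunits thus had the same high and the same low library. Without Rpl4 and Rpsa, the sums were 2273, 3839 and 2799 in Ash1l het and 2502, 2727 and 2722 in WT.

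**Figure D2:**
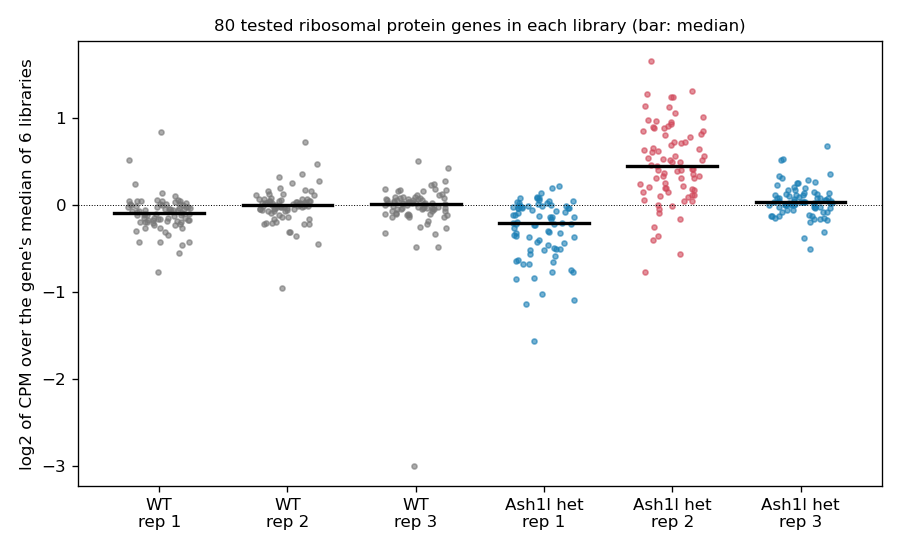
log2 of CPM over the gene's median of the 6 libraries, for the 80 tested ribosomal protein genes (points) in each library; the black bar is the median. The points of Ash1l het replicate 2 sit mostly above 0 and those of Ash1l het replicate 1 mostly below it, while the WT libraries and Ash1l het replicate 3 lie around 0.

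Gene by gene, Ash1l het replicate 2 was the highest of the 6 libraries in 60 of the 80 genes (75%, against 24.1% of all genes). Ash1l het replicate 1 was the lowest in 39 (48.75%, against 23.4%), and both held at once in 33 (41.25%, against 7.6%). Replicate 2 was more than 1.5-fold above the median of the other 5 libraries in 36 genes (45%, against 8.55%), and more than 2-fold above it in 13. It was as far below that median in 2 genes (5.08% of all genes), Rpl17 and Rpl29. Its median over the family was 1.47-fold, a log2 difference of 0.55 against 0.0081 over all genes. Replicate 1 was more than 1.5-fold below the median of the others in 19 genes (23.75%, against 9.22%) and above it by that much in 0 (5.73% of all genes). The ratio of replicate 2 to replicate 1 had a median of 1.70-fold, against 1.01-fold over all genes. It was over 2-fold in 28 genes of the family and below 1 in 9. Shares over all genes are not given for these counts, nor for the 13 genes above. They are not read as particular to the family. The SD of log2 CPM within Ash1l het had a median of 0.434 over the 80 genes, against 0.123 within WT, and was the larger of the pair in 66 (82.5%, against 68.5% of all genes).

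**Figure D3:**
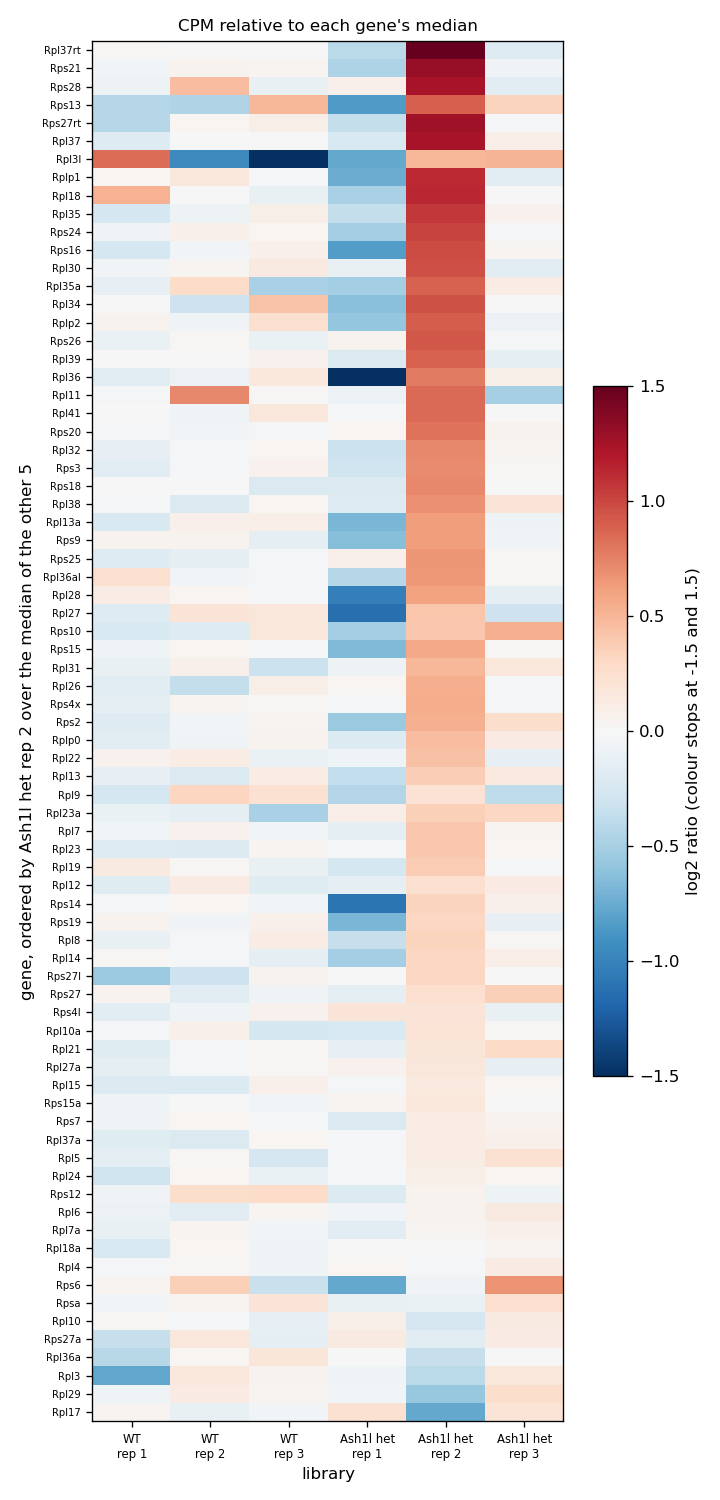
log2 of CPM over each gene's median of the 6 libraries, 1 row for each of 76 of the 80 tested ribosomal protein genes, ordered by Ash1l het replicate 2 over the median of the other 5; colours stop at -1.5 and 1.5. The column of Ash1l het replicate 2 is red for most rows, from Rpl37rt at the top to near white for Rpl4 and Rpsa, and blue for Rpl29 and Rpl17 at the bottom.

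With Ash1l het replicate 2 left out, the family's fold changes lay on both sides of 0. The median log2 fold change was -0.025 over the 81 genes then tested, with 38 above 0 and 43 below, where 49.5% of all genes were above 0 and the median of all genes was -0.0022. No member was called among the 7 genes that passed (0.0448% of those tested). The sign of the fold change turned in 39 of the 80 genes, in 35 of them, as given above, to below 0. The 2 genes with an unadjusted p under 0.05 were then Rplp1, at -0.48 (adjusted p = 0.748), and Rpl37rt, at -0.30 (adjusted p = 0.763), both in edgeR's quasi-likelihood fit. With replicate 1 left out instead, the median was 0.32 and 75 of 81 genes were above 0. In the same kind of fit, 11 had an unadjusted p under 0.05, and 0 were called (smallest adjusted p = 0.774). Shares over all genes are not given for the signs that turned, for the 2 genes above, or for the fit without replicate 1. These counts are therefore not read as particular to the family.

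**Figure D4:**
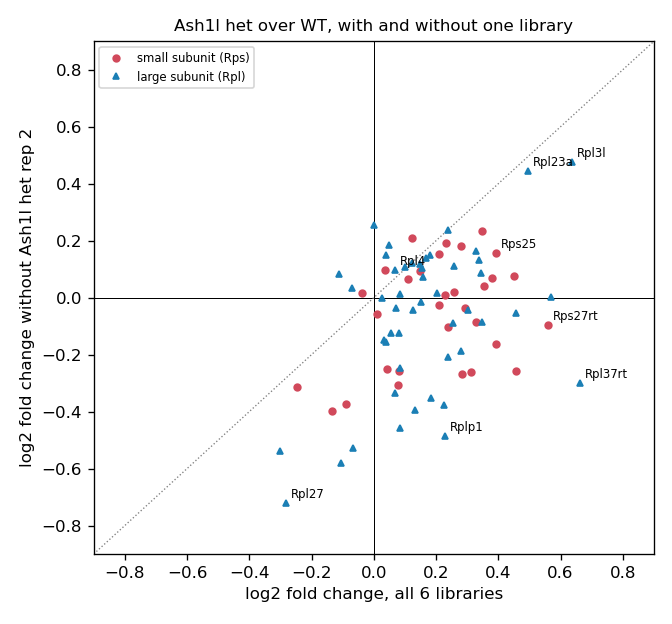
log2 fold change of Ash1l het over WT for each ribosomal protein gene, with all 6 libraries (x axis) and without Ash1l het replicate 2 (y axis); red circles are small subunit genes, blue triangles large subunit genes, and the dotted line marks equal values. Most points lie right of 0 and below the dotted line, and on the y axis they spread about 0 with a median of -0.025.

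The genes with the smallest p-values were examined next. Rps25, a small subunit protein that some viral internal ribosome entry sites need (chr9:44407714-44410405, plus strand, GRCm38), was at 38.1, 56.9 and 36.4 CPM in Ash1l het and 31.6, 32.7 and 35.7 in WT. All 3 Ash1l het libraries were above all 3 WT libraries, by a small margin in replicates 1 and 3. The log2 fold change of Rps25 was 0.39 (SE 0.17, edgeR quasi-likelihood adjusted p = 0.858) and 0.16 without replicate 2. By an exact permutation test over the libraries (two-sided), p was 0.1, and 3 against 3 libraries allow no smaller value. In all, 5 of the 80 genes had every Ash1l het library above every WT library (6.25%, against 6.18% of all genes) and 0 had the reverse (5.53%). Rps25, Rps15a, Rps20 and Rpl23a were among the 5; the naming rule did not pick Rps15a and Rps20, which were chosen after their values were seen. Rpl23a, a protein at the exit of the tunnel, was at 1.90, 2.28 and 2.20 CPM in Ash1l het and 1.66, 1.61 and 1.27 in WT, with a log2 fold change of 0.50 (SE 0.28). Its copy Rpl23a-ps3 held more counts (3620 against 172) and was at 36.0, 59.5 and 33.4 CPM in Ash1l het and 30.4, 35.4 and 35.4 in WT, where the groups overlapped.

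Rpl31 and Rpl26 lie near the tunnel exit on the large subunit. Rpl31 was at 25.02, 37.3 and 29.8 CPM in Ash1l het and 24.5, 27.8 and 21.1 in WT, and Rpl26 at 70.8, 101 and 67.7 against 61.4, 54.0 and 73.7. Replicate 2 was the highest library of both, and the groups overlapped. Their log2 fold changes of 0.33 (SE 0.17) and 0.34 (SE 0.18) came to 0.16 and 0.13 without it. Among the genes with a fold change below 0, the smallest p-values were those of Rps12, Rpl9, Rpl27, Rps19, Rpl29 and Rpl36a, from 0.205 upward in edgeR's quasi-likelihood fit. Rps19, the gene most often mutated in Diamond-Blackfan anaemia, was at 15.0, 29.8 and 22.1 CPM in Ash1l het and 25.003, 23.1 and 25.4 in WT. Its Ash1l het libraries lay on both sides of WT, and its log2 fold change was -0.13 (SE 0.22), or -0.40 (SE 0.18) without replicate 2. Rpl27 was at 1.43, 4.17 and 2.53 CPM against 2.73, 3.59 and 3.53, at -0.28 (SE 0.36), or -0.72 (SE 0.32) without replicate 2. Its copy Rpl27-ps3 was at 13.1, 24.9 and 19.5 against 14.9, 16.1 and 15.9, at 0.29 (SE 0.21). With all libraries, the gene and its copy thus had fold changes of opposite sign.

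The P stalk recruits and activates the elongation factors on the large subunit. Rplp0, its base, was at 70.7, 113 and 88.8 CPM in Ash1l het and 72.9, 78.7 and 85.0 in WT. Rplp1 was at 33.0, 120 and 49.1 CPM against 56.5, 61.9 and 53.9, and Rplp2, its partner, at 11.8, 33.2 and 16.7 against 18.3, 17.1 and 21.0. For all 3 genes replicate 2 was the highest library and replicate 1 the lowest, and in Rplp1 and Rplp2 replicate 3 lay below every WT library as well. The log2 fold changes were 0.20 (SE 0.16), 0.23 (SE 0.49) and 0.13 (SE 0.36) for Rplp0, Rplp1 and Rplp2. Without replicate 2 they were 0.015, -0.48 and -0.39, so the sign of Rplp1 and Rplp2 rested on that library.

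Rpl5 and Rpl11 form, with the small ribosomal RNA of the large subunit, the particle that restrains Mdm2 when ribosome assembly fails. Rpl5 was at 13.3, 14.6 and 15.8 CPM in Ash1l het and 12.2, 13.6 and 11.3 in WT, a log2 fold change of 0.24 (SE 0.14) that was again 0.24 without replicate 2. Rpl11 was at 1.02, 1.95 and 0.770 CPM against 1.08, 1.79 and 1.10, at -0.10 (SE 0.43). The groups overlapped in both, and both had a pseudogene copy with more counts, as given above. Gm15500, the copy of Rpl5, was at 133, 147 and 121 CPM in Ash1l het and 106, 118 and 114 in WT, with a log2 fold change of 0.24 (SE 0.11).

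Rpl4, Rpl17 and Rpl39 line or surround the exit tunnel. Rpl4, the most abundant of the family by FPKM, was at 428, 416 and 456 CPM in Ash1l het and 413, 425 and 401 in WT, with a log2 fold change of 0.07 (SE 0.10). Its 6 libraries lay close together, and replicate 2 was within the range of the others. Rpl17 was at 2.72, 1.37 and 2.69 CPM against 2.40, 2.15 and 2.26, and replicate 2 was its lowest library, at 0.572 times the median of the others. Rpl39 was at 3.60, 7.75 and 3.79 CPM against 4.22, 4.18 and 4.40, so replicate 2 was above and replicates 1 and 3 below every WT library. Its log2 fold change of 0.24 (SE 0.31) became -0.21 without replicate 2.

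Rpl3 and Rpl10 sit near the peptidyl transferase centre, and Rpl24 forms a bridge to the small subunit. Rpl3 was at 68.1, 53.8 and 80.0 CPM in Ash1l het and 41.5, 79.6 and 73.8 in WT, with replicate 2 at 0.729 times the median of the others. Rpl10 was at 18.3, 14.5 and 18.9 CPM against 17.4, 17.1 and 15.9, with replicate 2 its lowest library. Rpl24 was at 75.9, 82.1 and 78.8 CPM against 62.8, 78.6 and 72.0, with replicate 2 its highest. The groups overlapped in all 3 genes, and the log2 fold changes were 0.05 (SE 0.26), 0.04 (SE 0.14) and 0.15 (SE 0.11).

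Rps2, Rps3, Rps14, Rps15 and Rps26 lie along the mRNA path of the small subunit, Rps15 near the decoding centre and Rps14 and Rps26 where the mRNA leaves. Rps15 was at 89.1, 208 and 143 CPM in Ash1l het and 134, 143 and 138 in WT, and Rps14 at 52.7, 142 and 119 against 110, 115 and 109. In both, WT spanned a narrow band and replicates 1 and 2 lay far outside it on opposite sides. Rps2 was at 52.1, 111 and 92.4 CPM against 67.0, 74.5 and 79.1, and Rps3 at 70.3, 142 and 87.6 against 77.7, 85.5 and 90.8. The log2 fold changes of Rps15, Rps14, Rps2 and Rps3 were 0.08 (SE 0.28), -0.09 (SE 0.34), 0.21 (SE 0.25) and 0.24 (SE 0.24), and without replicate 2 they were -0.26, -0.37, -0.025 and -0.10.

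Rps26 was at 25.8, 47.7 and 24.6 CPM in Ash1l het and 23.3, 25.2 and 23.3 in WT, with a log2 fold change of 0.45 (SE 0.25) that was 0.075 without replicate 2. Replicate 2 stood apart from 5 libraries that were nearly level. Its copy Rps26-ps1, with 9178 counts against 2665, had the opposite order, at 119, 67.5 and 103 CPM in Ash1l het and 90.6, 99.2 and 102 in WT, so that replicate 2 was its lowest library. Summed over the gene and the copy, the level was 144, 115 and 128 CPM in Ash1l het and 114, 124 and 126 in WT, and replicate 2 was no longer the highest library. Rps26 was the exception among the pairs named so far. In the same sums for Rpl9, Rpl12, Rpl11, Rps27, Rpl5, Rpl23a and Rpl27 with their copies, replicate 2 was the highest library.

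Rps6, the substrate of S6 kinase, was at 1.97, 3.26 and 5.39 CPM in Ash1l het and 3.48, 4.30 and 2.66 in WT, a log2 fold change of 0.04 (SE 0.36) that was -0.41 without replicate 3. Rpl13a, a protein phosphorylated in interferon-treated cells, was at 80.4, 199 and 123 CPM in Ash1l het and 110, 136 and 138 in WT. Rpl38, which Hox mRNA translation needs in the mouse embryo, was at 11.4, 21.0 and 15.0 CPM against 12.8, 11.2 and 13.3. Replicate 2 was the highest library of Rpl13a and Rpl38 and replicate 3 that of Rps6, and the groups overlapped in all 3. The log2 fold change of Rpl13a was 0.07 (SE 0.32) and -0.33 without replicate 2, and that of Rpl38 was 0.35 (SE 0.21) and 0.087. Rpsa was at 329, 333 and 426 CPM in Ash1l het and 345, 367 and 406 in WT, at -0.04 (SE 0.13), and Rps27a, made as a fusion with ubiquitin, at 7.07, 5.73 and 6.98 against 5.05, 7.23 and 5.85, at 0.12 (SE 0.20). In neither was replicate 2 the highest library. Rpl35a, mutated in some patients with Diamond-Blackfan anaemia, came to 0.35 (SE 0.35) in log2 fold change and to -0.084 without replicate 2.

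The members farthest above the rest in Ash1l het replicate 2 included the copies Rpl37rt and Rps27rt. Rpl37rt, a copy of the large subunit gene Rpl37 that GENCODE annotates as a transcribed processed pseudogene, was at 18.8, 77.9 and 21.7 CPM in Ash1l het and 25.1, 24.9 and 24.8 in WT. Replicate 2 was 3.14-fold above the median of the others, while the 3 WT libraries were nearly equal and replicates 1 and 3 lay below them. Rpl37, named after its values were seen, was at 8.23, 22.7 and 10.3 CPM against 8.44, 9.62 and 9.61, so the working gene and the copy were high in the same library. Rps27rt was at 20.7, 64.0 and 26.1 CPM against 19.7, 27.0 and 28.3, and Rps21 at 9.79, 33.4 and 13.0 against 13.1, 13.9 and 13.8. Rps28 was at 3.88, 8.67 and 3.30 CPM against 3.48, 5.08 and 3.42, and Rps13 at 0.680, 2.28 and 1.54 against 0.911, 0.897 and 1.74. Rps21, Rps28 and Rps13 are small subunit proteins, and replicate 2 was 2.45- to 2.55-fold above the median of the others in these 3 and in Rps27rt. The log2 fold changes were 0.66 (SE 0.60) for Rpl37rt, 0.56 (SE 0.45) for Rps27rt and 0.46 (SE 0.45) for Rps21, and without replicate 2 they were -0.30, -0.097 and -0.26. At the other end Rpl29, a large subunit protein, was at 93.6, 65.0 and 115 CPM in Ash1l het and 92.1, 105 and 98.5 in WT, with replicate 2 its lowest library.

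The remaining paralogs were low or level, except Rpl36al, in which replicate 2 was 1.58-fold above the median of the others. Rpl3l, with 4, 10 and 12 counts in the Ash1l het libraries and 10, 4 and 1 in WT, had too few to place its log2 fold change of 0.64 (SE 0.77). Rps27l, a paralog of Rps27 induced by p53, was at 2.65, 3.32 and 2.69 CPM against 1.82, 2.15 and 2.78, and Rps4l, a paralog of the X-linked Rps4x, at 7.82, 7.82 and 6.32 against 6.13, 6.52 and 7.12. GENCODE annotates Rps4l, like Rpl37rt, as a transcribed processed pseudogene, and replicate 2 was 1.20-fold above the median of the others in it. Rpl36al was at 5.58, 11.7 and 7.59 CPM against 8.86, 7.29 and 7.41, and the gene it resembles, Rpl36a, at 4.96, 3.91 and 5.003 against 3.73, 5.08 and 5.67. Replicate 2 was the highest library for Rpl36al but not for Rpl36a. The largest ratio between replicates 2 and 1 was that of Rpl36, 5.07-fold, which was picked out after its values were seen.

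The position of replicate 2 was set against transcript length, in this family and in other genes. Among protein-coding members, the median log2 difference of replicate 2 from the other 5 libraries was 0.72 for 18 genes with an mRNA under 600 bases, 0.55 for 30 from 600 up to 1000, 0.45 for 19 from 1000 up to 1500 and 0.20 for 8 from 1500 up to 2500. The 2 members from 2500 up to 5000 bases had the highest value, 0.99, and the 1 longer member had 0.16. Each length is that of a single annotated transcript per gene, the longest among those ranked best. Whether the long transcripts are the ones expressed in the striatum was not tested, so the placing of the longest members is uncertain. Over the 80 members the correlation of log2 mRNA length with that difference was weak, with Pearson's r = -0.21 and Spearman's rho = -0.24, as a description. In other coding genes it was 0.60, 0.35, 0.16 and 0.060 over the same lengths (105, 541, 1177 and 3072 genes), and -0.097 for 2882 genes of 5000 bases and over. Short genes outside the family were thus high in the same library. Replicate 1 had the opposite slope in the other genes, from -0.23 under 600 bases to 0.10 at 5000 and over, and was between -0.25 and -0.14 in the members under 2500 bases. Other coding genes under 1000 bases with a mean of at least 50 CPM, 55 in all, had a median of 0.14 in replicate 2, which was their highest library in 28 (50.9%). What part of the family's level in replicates 1 and 2 goes with length was not tested.

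**Figure D5:**
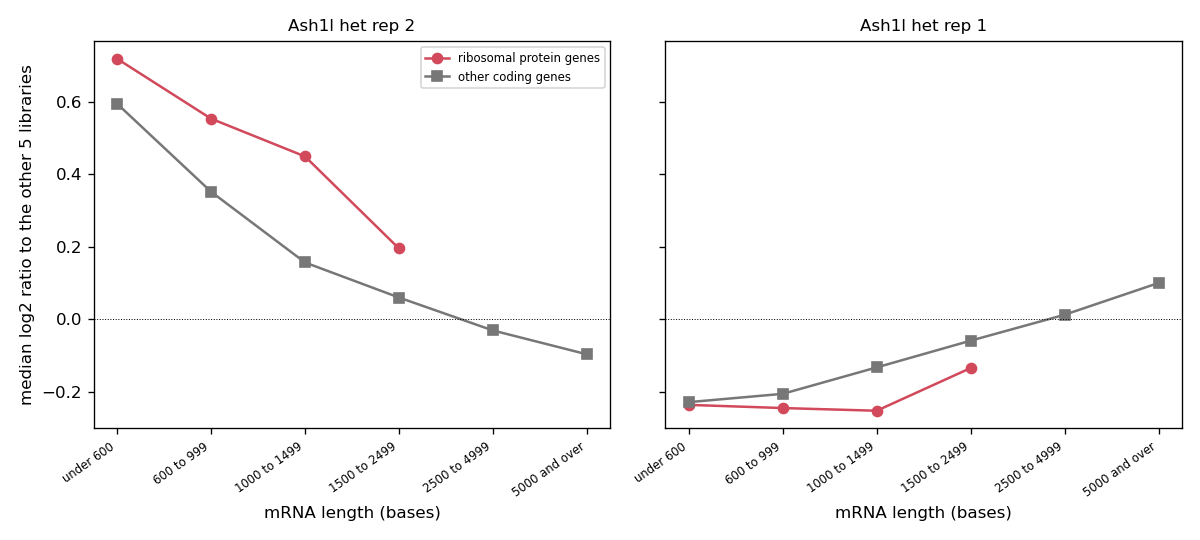
Median log2 ratio of Ash1l het replicate 2 (left) and replicate 1 (right) to the median of the other 5 libraries, by annotated mRNA length in bases, for ribosomal protein genes (red circles) and other coding genes (grey squares). Bins with under 8 members are not drawn. In replicate 2 the grey line falls with length from 0.60 under 600 bases, and the red line falls from 0.72 to 0.20 up to 2500 bases; in replicate 1 the grey line rises from -0.23 to 0.10.

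The members were then divided by shared sequence and by the start-site tract. The 41 genes with at least 50% of their 50-base stretches in no other gene had a median log2 fold change of 0.18, and replicate 2 was highest in 34. The 39 others had 0.15 and 26. The 20 tested genes with a start-site run of at least 8, such as Rpl35, Rpl15, Rplp2 and Rps24 shown above, had a median log2 difference of 0.61 in replicate 2, and the 40 with a shorter run 0.57. Rpl35, Rpl15 and Rps24 were named for their windows after their values were seen. Rpl35 was at 25.5, 68.1 and 34.4 CPM in Ash1l het and 27.2, 31.1 and 34.8 in WT, Rps24 at 55.5, 159 and 77.6 against 76.2, 83.3 and 80.8, and Rpl15 at 20.7, 23.6 and 21.7 against 18.4, 18.4 and 22.5. Replicate 2 was thus the highest library for all 3, by a wide margin in Rpl35 and Rps24 and a narrow one in Rpl15. Pseudogenes annotated in GENCODE that share 50-base stretches with a member, 51 in the table, summed to 660, 766 and 690 CPM in Ash1l het and 587, 665 and 691 in WT, highest in the same library. Of the 16 that were tested, 0 were called.

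Genes that work with the ribosome were compared in the same way, and 0 were called in any list. The elongation factors and other genes with a TOP tract (16, such as Eef1a1, Eef2 and Pabpc1) summed to 3722, 4258 and 3970 CPM in Ash1l het and 3820, 3827 and 3830 in WT. In the sum, replicate 2 was highest and replicate 1 lowest here too. Gene by gene, replicate 2 was the highest library in 10 of the 16, and it was the lowest in Pabpc1. Of the 16 fold changes, 13 were above 0, with a median of 0.06. Hnrnpa1, an RNA-binding protein, had the smallest unadjusted p of that list, at 0.31 (SE 0.12, edgeR quasi-likelihood adjusted p = 0.857). The 25 genes of ribosome assembly and RNA polymerase I had 13 fold changes above 0 and 12 below, a median of 0.0033, and a median log2 difference of -0.061 in replicate 2. Nol6, a nucleolar assembly factor, was at -0.38 (SE 0.11, adjusted p = 0.801 in the same fit). The 21 genes of mTORC1 and its partners had 13 above 0 and 8 below, a median of 0.026, and -0.10 in replicate 2. The 77 mitochondrial ribosomal proteins, which build the separate ribosome of the organelle, had 42 above 0 and 35 below, with a median of 0.015. They summed to 1175, 1414 and 1311 CPM in Ash1l het and 1268, 1309 and 1335 in WT, so the highest and lowest libraries of the sum were the same as for the cytosolic family. Gene by gene, replicate 2 was the highest library in 40 of the 77.

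Marker sums of other cell types were compared across the same libraries. The oligodendrocyte list (6 genes) summed to 7001, 7985 and 5458 CPM in Ash1l het and 6681, 5301 and 5859 in WT, highest in replicate 2. The astrocyte list (6 genes) stood at 1342, 1642 and 794 CPM against 1024, 857 and 919, and the microglia list (6 genes) at 256, 346 and 274 against 305, 270 and 299, both highest in replicate 2. Without Gfap, which alone was at 412, 733 and 104 CPM in Ash1l het and 154, 62.1 and 83.7 in WT, the 5 other astrocyte genes summed to 930, 909 and 690 against 870, 795 and 835, highest in replicate 1. In the microglia list replicate 2 was highest in 4 of the 6 genes, but not in P2ry12 and Csf1r. It stood out most in C1qa, at 40.3, 94.6 and 41.2 CPM in Ash1l het and 44.5, 38.4 and 42.4 in WT. Reactive microglia markers (6 genes) summed to 111, 139 and 92.2 CPM against 81.1, 56.4 and 88.3, with 6 of 6 fold changes above 0. These sums did not overlap, by a narrow margin. Gene by gene, the groups were apart in Spp1 and overlapped in Clec7a, Itgax, Cst7, Gpnmb and Lpl. Blood cell genes (5) were at 123, 110 and 56.1 CPM against 25.1, 35.4 and 23.0, with 5 of 5 above 0 and no overlap of the groups. The sums of the endothelial markers (6 genes) did not overlap either, by a narrow margin, at 222, 195 and 255 CPM against 158, 192 and 161. Of these genes, 5 of 6 had a fold change above 0. Gene by gene, the groups were apart in Vwf and Pecam1 and overlapped in Flt1, Ly6c1, Kdr and Cldn5. Choroid plexus markers (5 genes) stood at 15.7, 16.5 and 10.8 CPM against 27.0, 12.9 and 12.2, highest in WT replicate 1. Cortical glutamatergic neuron markers (5 genes) ran the other way within Ash1l het, at 88.6, 14.4 and 51.4 CPM against 59.3, 32.5 and 44.6, lowest in replicate 2 and highest in replicate 1. No gene of these lists was at 0 in all libraries, and the part of cell makeup in the levels of the ribosomal protein genes was not tested.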

How the data were processed

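Raw counts of reads for each gene in 6 libraries were deposited, with FPKM computed by the authors; the per-sample files repeat the counts. Tools named in the submitters' processing notes, without versions or roles, are HISAT2, StringTie, edgeR, CASAVA and FastQC, with the build GRCm38. The library kit keeps the strand of the mRNA, per the labels' protocols; the sources used here do not give whether the counting used it, which leaves overlapping and antisense genes uncertain. FPKM equals the count over the library total and a fixed length, whole within 0.1 base for 99.1% of 15172 genes.

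Counts were tested with edgeR 4.0.16 (R 4.3.3): TMM, default filter (minimum count 10), robust quasi-likelihood fit, genotype as the single term, Benjamini-Hochberg adjustment over all 15267 genes, calls under 0.05. A fold change is the log2 ratio of Ash1l het to WT, with the fit's SE. DESeq2 1.42.0, limma 3.58.1, other scalings and filters, and each library left out were tried. The steps were tested on simulated data. Transcripts of GENCODE M21 (same build) gave mRNA lengths and the 50-base stretches shared between genes. A single transcript stood for each member, by best annotation rank (APPRIS), then coding type, then greatest length. The lengths, levels per kilobase and percentages of stretches in no other gene depend on that choice. Promoter windows are from RefSeq (GRCm38.p6). Intervals and floors cover counting error only.

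The members and lists were chosen with earlier results of these data known. The named members are those with the 6 smallest p-values in each direction, the 6 highest and lowest by FPKM, the 5 highest and lowest in Ash1l het replicate 2 against the others, and those of fixed roles or paralogs; members named outside this rule are marked as such, and a few members are counted but not reported here by name.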

Additional observations from a re-analysis of the deposited data

How the results depend on the processing

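No member was called under any of the 11 alternatives with all 6 libraries, at an adjusted p under 0.1, or with any library left out. The genes called overall were 2, but 39 under edgeR's exact test and 39 under DESeq2, and 1 to 13 with a library left out, fewest on dropping replicate 3 of WT and most on dropping replicate 3 of Ash1l het. The median log2 fold change of the members was 0.13 to 0.20 under the alternatives with all libraries and -0.025 to 0.32 with 1 left out, and members above 0 numbered 38 to 75 with 1 left out; both low ends are without Ash1l het replicate 2. Of the 41 members with at least 50% of their 50-base stretches in no other gene, an alternative chosen after seeing the data, 36 were above 0. Ash1l het replicate 2 was highest in 60 members, and in 70, 60, 63 and 70 with library totals, RLE scaling, upper-quartile scaling and FPKM. The log2 ratio of the group means of summed CPM was 0.13, with 0.13 to 0.21 under other scalings and -0.034 to 0.27 with 1 library left out.

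For the 46 tested members that the naming rule picked, 47 of 771 values changed sign, 14 of them by more than the SE. Without Ash1l het replicate 2 the signs of 18 of these members turned, 13 of them by more than the SE, and the log2 fold changes of the 13 are given with their range over the libraries left out: Rpl13a -0.33 (-0.33 to 0.33), Rpl29 0.081 (-0.32 to 0.081), Rpl35a -0.084 (-0.084 to 0.62), Rpl36al -0.25 (-0.25 to 0.30), Rpl37rt -0.30 (-0.30 to 0.99), Rpl39 -0.21 (-0.21 to 0.43), Rplp1 -0.48 (-0.48 to 0.55), Rplp2 -0.39 (-0.39 to 0.41), Rps15 -0.26 (-0.26 to 0.34), Rps21 -0.26 (-0.26 to 0.76), Rps27rt -0.097 (-0.097 to 0.84), Rps28 -0.16 (-0.16 to 0.65) and Rps3 -0.10 (-0.10 to 0.44). Of these, Rpl37rt, Rps21, Rps27rt, Rps28 and Rpl29 were among the members named for their place in replicate 2. Their turn on leaving it out follows in part from that choice, and so do the counts of turned signs. Rps6 turned without Ash1l het replicate 3 (-0.41, range -0.41 to 0.32). The cause was not tested.

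Same-numbered libraries had deviations correlated at 0.068, -0.077 and 0.0071. Libraries with different numbers ranged from -0.14 to 0.14. With so few libraries these values cannot show whether the numbers pair them. A replicate block gave 3 genes called, 0 of them members, a median of 0.14 and 65 members above 0. Few counts limit the precision of members such as Rpl3l and Rpl9, and the level of those with abundant copies, Rpl9 among them, is uncertain.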

Other observations

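Some members shared 50-base stretches with coding genes that are no ribosomal protein genes, a pattern looked up after the values were seen. Rps25 shared them with Trappc4, a subunit of the trafficking complex TRAPP, which had 2220 counts against 3642 for Rps25 and a log2 fold change of -0.11 (SE 0.15). Rpl31 shared them with Tbc1d8, which had 15013 counts against 2609 and a log2 fold change of 0.13 (SE 0.12). Rplp2 shared them with Wdr89, whose level in Ash1l het replicate 2 was 1.88-fold the median of the other libraries, close to the 1.94-fold of Rplp2. In Trappc4 and Tbc1d8 that library was at 1.11 and 0.920 times the median of the others, against 1.59 in Rps25 and 1.49 in Rpl31.

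The 70 genes with at least 100 matches to such stretches, counted over all their transcripts, did not all follow their member. Gm2000, a copy of Rpl35, was 2.19-fold above the others in replicate 2, as Rpl35 was (2.19-fold), and Gm8730, a copy of Rplp0, was 1.76-fold above them, against 1.43-fold for Rplp0. Rpl9-ps6 was at 35.4, 73.1 and 41.2 CPM in Ash1l het and 41.3, 45.9 and 48.2 in WT, whereas Rps26-ps1 was lowest in that library, at 0.659 times the median of the others. Their part in the levels of the members was not tested.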
